A study of Homo sapiens with 32 samples.

Results

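Keratins and claudins are the genes by which epithelia are usually recognised, and Ewing sarcoma is not an epithelial tumor. The members described here were every gene whose symbol is KRT or CLDN followed by a number, with A, B or C allowed after a keratin number. There were 79 of them, 55 keratins and 24 claudins, among 28278 gene symbols measured, and the same 79 were found by their Ensembl identifiers in the 60199 genes of the knockdown experiment. RNA was sequenced from the Ewing sarcoma lines A673, SK-N-MC and A4573 to ask how loss of the cohesin subunit STAG2 changes transcription. Cohesin holds DNA loops and carries either STAG1 or STAG2, while EZH2 and SUZ12 are core subunits of PRC2, the complex that methylates histone H3 at silenced genes.

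All A673 KO libraries came from clones derived from 1 clone (WT clone) that carries a doxycycline-inducible Cas9 at the AAVS1 locus, a property that controls of this clone share and parental A673 cells lack. Experiment 1 held 2 WT clone, 1 parental and 2 STAG2 KO libraries. Experiment 2 held 2 WT clone and 1 parental library with 3 libraries each of STAG2 KO, EZH2 KO and SUZ12 KO. Experiment 3 held 1 WT clone and 1 parental library with 3 STAG1 KO libraries. In experiment 4, 3 libraries of A673 cells transfected with siRNA against STAG2 were compared with 3 of mock-transfected cells, which the labels name WT and the deposited columns siC. SK-N-MC (SKNMC in the labels), which has STAG2, was sequenced once with iCas9 alone and once as iCas9 with STAG2 KO. A4573, which according to the study lacks STAG2, was sequenced once with iCas9 alone and once with its STAG2 restored by knock-in (STAG2 KI). Each A673 KO library was made from 1 clone, all WT clone libraries are repeats of 1 clone, and the p-values measure the spread between such libraries.

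The targeted RNA was lower in EZH2 KO (28.6 to 56.2 normalized counts per 1000000 counts, CPM, against 167 to 190 in controls) and in SUZ12 KO (11.2 to 20.8 against 58.3 to 64.8 CPM). STAG2 was at 43.8 to 70.3 CPM in 4 STAG2 KO libraries and at 189 CPM in library 24 of experiment 1, against 250 to 349 CPM in controls. STAG1 was at 62.0, 15.1 and 33.0 CPM in the libraries labelled STAG1 KO against 57.5 and 68.7 CPM in their controls, so library 1 was not below them and the RNA does not check its label. Depth was 15734628 to 20663679 counts in the 22 A673 libraries of experiments 1 to 3 and 29322507 to 32261248 in the isogenic pairs. Of 10 Ewing sarcoma identity genes, which include FLI1 and NKX2-2, 9 had counts in the A673 controls and CD99 was listed at 0 in all 26 count libraries. Epithelial markers that are not members (CDH1, EPCAM, ESRP1, GRHL2, RAB25) summed to 0.272 to 1.58 CPM in the 8 A673 control libraries of experiments 1 to 3, and blood markers to 0.124 to 0.578 CPM.

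Keratins are intermediate filament proteins that work only as pairs, 1 acidic type I keratin with 1 basic type II keratin. KRT8 and KRT18 are the pair of simple epithelia, KRT5 and KRT14 that of basal cells, KRT10 a partner in the upper epidermis, KRT17 a keratin of stressed epidermis and hair follicle, and KRT34 and KRT40 belong to hair or other appendages. Claudins span the membrane and seal or open the tight junction: CLDN1, CLDN3, CLDN4 and CLDN7 tighten epithelia, CLDN5 tightens endothelium, CLDN11 is found in myelin and testis, CLDN10 and CLDN16 form pores for ions, and CLDN6 is a claudin of early embryonic epithelia. Type I keratin genes lie in a cluster on chromosome 17 and type II genes in a cluster on chromosome 12, where KRT18 is the type I gene that lies next to KRT8.

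A673 control cells transcribed only a few members. Of the 79 genes, 32 had no count in any of the 8 control libraries of experiments 1 to 3, 61 had at most 3 counts in each of them, and 7 had at least 100 counts in all. These 7 were also those with a mean of at least 1 read per kilobase of exons per 1000000 counts (RPKM), the scale on which different genes were compared. KRT18 stood first among keratins, at 77.2 ± 29.95 RPKM (SD, n = 8). KRT17 followed at 12.1 ± 7.93, KRT10 at 9.01 ± 2.22 and KRT8 at 3.59 ± 1.02 RPKM. The lowest KRT18 library (43.1 RPKM) was above the highest KRT17 library (22.7 RPKM), whereas the ranges of KRT17 and KRT10 overlapped.

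KRT8 is annotated with long transcripts. With the longest transcript in place of all exons as its length, its mean was 8.64 ± 2.45 RPKM and overlapped that of KRT10, while KRT18 stayed first at 113 ± 44.02 RPKM. KRT8 and KRT18 thus differed in level although their proteins pair: the KRT8 to KRT18 ratio per exon length was 0.0346 to 0.0587 over the 8 control libraries. By longest transcript it was 0.0566 to 0.0961. The other 51 keratins had mean levels of 0.355 RPKM (KRT80) or less. KRT40 was at 0.278 ± 0.194 RPKM, its range overlapping that of KRT80. Unlike KRT8, KRT10, KRT17 and KRT18, some other keratins of stratified or glandular epithelia were near or at 0. KRT5 had 0 counts in every control library, KRT7 at most 1, KRT14 and KRT20 at most 2 and KRT19 at most 4.

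Among claudins, CLDN1 was at 95.7 ± 17.2 RPKM, above CLDN12 (6.23 ± 0.59) and CLDN15 (4.62 ± 1.30), whose ranges overlapped. CLDN1 held 79.9 to 87.7% of all claudin counts in each control library, and KRT18 held 61.5 to 81.2% of all keratin counts. CLDN11 (0.153 ± 0.061), CLDN16 (0.146 ± 0.077) and CLDN7 (0.133 ± 0.107 RPKM) overlapped each other, and CLDN18, a claudin of stomach and lung, had 0 counts in all 26 count libraries. Counts of CLDN12 are uncertain since exons of CDK14 and GTPBP10 overlap its annotated exons on the same strand. Several members, among them KRT8, KRT18, KRT10, CLDN6, CLDN7 and CLDN10, had exons that overlap those of another gene. The libraries do not keep the strand, so reads of KRT8 and KRT18 in their shared annotated stretch cannot be told apart.

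**Figure D1:**
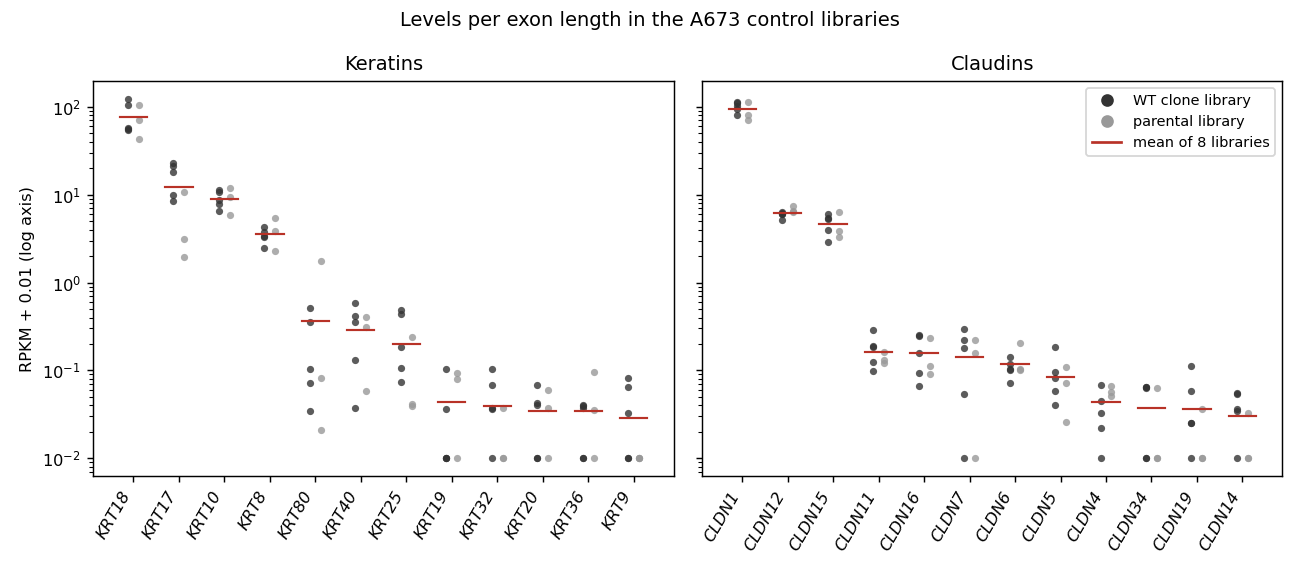
Levels of the 12 highest keratins and 12 highest claudins in the 8 A673 control libraries of experiments 1 to 3, in RPKM plus 0.01 on a log axis, with 1 point per library (5 WT clone, 3 parental) and a line at the mean. KRT18 and CLDN1 stand above the other members of their families, and only 7 genes have a mean above 1 RPKM.

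The windows before the transcription starts of 5 members called in the comparisons given further on are shown, since they range from no CG dinucleotide to a dense run of them. The RefSeq promoter table (GRCh38.p14) held starts for 53 of the 79 members, 34 keratins and 19 claudins, and the 250 bases before the start were read. Where a gene had several starts, the one nearest to the 5′ end of the GENCODE gene was used. That of CLDN4 lies 31454 bases inside the annotated gene, where a GENCODE transcript also starts. Each line reads 5′ to 3′ on the strand of the gene, and capitals mark every CG dinucleotide.
CLDN4 (chr7:73830746-73830995, plus strand): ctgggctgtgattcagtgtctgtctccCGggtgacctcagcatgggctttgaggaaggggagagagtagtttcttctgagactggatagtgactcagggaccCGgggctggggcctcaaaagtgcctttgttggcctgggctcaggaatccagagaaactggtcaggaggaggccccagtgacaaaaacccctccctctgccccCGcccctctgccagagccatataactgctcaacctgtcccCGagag
CLDN7 (chr17:7263214-7263463, minus strand): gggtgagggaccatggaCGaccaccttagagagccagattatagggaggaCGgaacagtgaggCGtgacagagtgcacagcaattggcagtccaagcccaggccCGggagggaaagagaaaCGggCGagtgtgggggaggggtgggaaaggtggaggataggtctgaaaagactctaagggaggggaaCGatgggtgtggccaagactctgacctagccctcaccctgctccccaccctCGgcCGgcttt
CLDN1 (chr3:190322447-190322696, minus strand): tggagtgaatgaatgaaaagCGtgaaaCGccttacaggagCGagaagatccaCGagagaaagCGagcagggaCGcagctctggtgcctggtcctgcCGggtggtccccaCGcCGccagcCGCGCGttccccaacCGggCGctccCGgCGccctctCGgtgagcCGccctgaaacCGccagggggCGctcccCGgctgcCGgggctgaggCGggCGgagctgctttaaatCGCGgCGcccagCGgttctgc
CLDN11 (chr3:170418618-170418867, plus strand): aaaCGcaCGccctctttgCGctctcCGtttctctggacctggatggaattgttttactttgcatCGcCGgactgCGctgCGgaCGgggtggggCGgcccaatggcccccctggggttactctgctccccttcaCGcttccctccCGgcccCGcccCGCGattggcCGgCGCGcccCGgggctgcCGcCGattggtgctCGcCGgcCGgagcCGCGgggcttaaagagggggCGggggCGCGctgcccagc
KRT34 (chr17:41382307-41382556, minus strand): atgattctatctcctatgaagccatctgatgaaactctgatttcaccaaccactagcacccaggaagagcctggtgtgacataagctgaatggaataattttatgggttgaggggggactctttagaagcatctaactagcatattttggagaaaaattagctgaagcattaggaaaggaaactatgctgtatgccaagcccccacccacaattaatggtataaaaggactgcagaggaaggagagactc

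These windows held 4 CG dinucleotides for CLDN4, 9 for CLDN7, 28 for CLDN1, 29 for CLDN11 and 0 for KRT34. Over the 35116 windows of the table the median was 11, and over the matched keratins it was 2 and over the matched claudins 7. The CLDN1 window thus held at least as many as 85.9% of all windows, and that of KRT34 was among the 6.06% with none. The letters TATAAA, searched on both strands, were found in 21 of the 53 member windows and in 10.7% of all windows, and GGGCGG in 11 of the 53 and in 42.6% of all. GGAAGGAA, 2 joined copies of the GGAA unit that the EWS::FLI1 fusion protein binds in repeats, was found in 0 of the 53 and in 3.06% of all windows. TGANTCA was found in 4 of the 53 and in 6.57% of all. CLDN1 (GRCh38 chromosome 3, 190305707 to 190322446) and CLDN16 (190322541 to 190412138) are annotated head to head, so the CLDN1 window also covers the start of the longest annotated extent of CLDN16.

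Loss of PRC2 raised KRT8, KRT17 and several claudins that the controls barely transcribed. Of the 79 members, 18 had enough counts in experiment 2 to be tested. In EZH2 KO, 5 of these 18 rose (KRT8, KRT17, CLDN4, CLDN5, CLDN7) and 0 fell, against 12% of all 15130 genes tested that rose and 3.69% that fell. In SUZ12 KO, 8 of 18 rose, the same 5 with CLDN6, CLDN10 and KRT9, and 0 fell, against 14.7% and 5.87% of all genes. The medians over the 18 tested members were 1.45 (EZH2 KO) and 1.55 (SUZ12 KO) on the log2 scale, and those over all genes 0.04 and 0.01. Members enter this test only if some libraries hold enough counts, so low genes entered through the group in which they were high. Both comparisons used the same 3 controls.

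KRT8 had 530, 412 and 694 counts in the 3 controls, 10220, 5209 and 8667 in the EZH2 KO libraries and 3542, 19269 and 8379 in the SUZ12 KO libraries. Every PRC2 KO library was above every control, and SUZ12 KO clone 2 was highest. The log2 fold change was 3.73 ± 0.47 (SE, n = 3 against 3, adjusted p = 5.49e-04, edgeR quasi-likelihood test) in EZH2 KO and 4.04 ± 0.48 (adjusted p = 2.52e-04) in SUZ12 KO. Its partner KRT18 was not called. KRT18 was at 377, 325 and 326 CPM in controls, 476, 398 and 513 in EZH2 KO and 251, 361 and 471 in SUZ12 KO, and its log2 fold changes were 0.46 ± 0.29 (adjusted p = 0.315) and 0.11 ± 0.29 (adjusted p = 0.817). All EZH2 KO libraries were above all controls, and a fit on these 6 libraries alone called KRT18 in EZH2 KO (adjusted p = 0.037). The KRT8 to KRT18 ratio per exon length was therefore 0.305 to 1.06 over the 6 PRC2 KO libraries against 0.0346 to 0.0516 in their controls, with no overlap and no test. In bulk RNA, more cells with KRT8 RNA and more KRT8 RNA per cell cannot be told apart.

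KRT17 was at 29.7 and 25.1 CPM in the WT clone and 9.41 CPM in parental cells of experiment 2. It was at 97.9, 134 and 78.4 CPM in EZH2 KO and 86.2, 168 and 86.7 CPM in SUZ12 KO. The log2 fold changes were 2.30 ± 0.48 (adjusted p = 0.00815) and 2.44 ± 0.49 (adjusted p = 0.00454). KRT17 also differed between both kinds of control, with a log2 difference of WT clone minus parental of 1.88 ± 0.40 (adjusted p = 0.0407) over experiments 1 to 3. This call was lost without WT clone library 1 (adjusted p = 0.154) or 2 (0.142) or the parental library (0.0974) of experiment 2, or without WT clone library b of experiment 1 (0.0513). KRT17 was the only 1 of 13 members tested that was called there, against 2.75% of 14521 genes, 1.74% higher and 1.01% lower. With the WT clone as the only control, the log2 fold changes of KRT17 were 1.92 in EZH2 KO and 2.07 in SUZ12 KO, and both were called. Its pseudogene copies KRT17P1 and KRT17P2 rose too, by 3.66 and 4.402 in EZH2 KO and 3.54 and 3.71 in SUZ12 KO on the log2 scale. Neither was tested in STAG2 KO, and both may have entered here through the KO libraries. Since reads with up to 5 alignments were kept, the division of reads among KRT17 and these copies is uncertain.

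**Figure D2:**
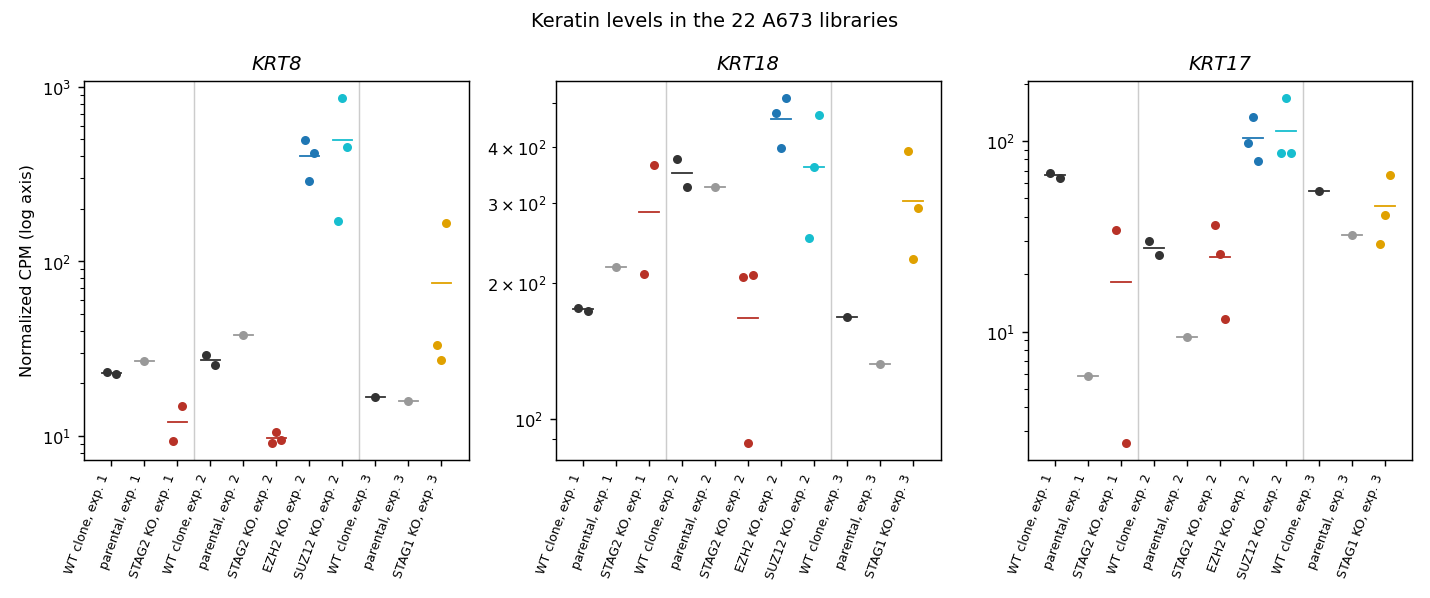
KRT8, KRT18 and KRT17 in the 22 A673 libraries, in normalized CPM on log axes that differ between panels. Points are libraries, lines group means, and grey rules divide experiments 1, 2 and 3. KRT8 is at 171 to 862 CPM in PRC2 KO and at 9.16 to 14.8 CPM in STAG2 KO, with the controls of experiments 1 and 2 between them at 22.6 to 37.7 CPM.

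The claudins that rose started from almost no RNA. CLDN4 had 3, 0 and 4 counts in the controls, 18, 23 and 43 in EZH2 KO and 14, 31 and 30 in SUZ12 KO, a pooled ratio of 10.6 (95% counting interval 4.95 to 27.3) and 9.19 (4.25 to 23.6). CLDN5 had 3, 4 and 1 counts in controls, 30, 9 and 60 in EZH2 KO and 76, 67 and 35 in SUZ12 KO. Its log2 fold changes were 3.37 ± 0.90 (adjusted p = 0.0265) and 4.20 ± 0.91 (adjusted p = 0.00704). CLDN7 had 2, 0 and 0 counts in controls, 17, 32 and 10 in EZH2 KO and 24, 64 and 10 in SUZ12 KO. With so few control counts the CLDN7 ratio is known only widely, 26.2 (6.93 to 221) and 42.0 (11.3 to 352). For all these genes each KO library was above each control. The counting intervals, exact for the counts pooled within a group, cover counting error only.

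CLDN10 and CLDN6 varied among the PRC2 KO libraries. On the opposite strand, exons of DZIP1 overlap those of CLDN10, exons of TNFRSF12A those of CLDN6 and exons of ELP5 those of CLDN7. Reads in these shared stretches cannot be told apart. CLDN10 had 0, 0 and 1 counts in controls, 7, 13 and 0 in EZH2 KO and 58, 172 and 36 in SUZ12 KO. The SUZ12 KO ratio was 228 with a counting interval of 40.6 to 9045 (adjusted p = 0.00386), and in EZH2 KO the call was missed (adjusted p = 0.125). CLDN6 had 3 counts in each control, 8, 6 and 11 in EZH2 KO and 13, 112 and 15 in SUZ12 KO, with log2 fold changes of 1.28 ± 0.88 (adjusted p = 0.348) and 3.65 ± 0.85 (adjusted p = 0.0106). SUZ12 KO clone 2 held most of the CLDN6 counts. CLDN3, whose gene lies beside that of CLDN4, was too low to be tested, at 0 counts in every control, 0, 12 and 2 in EZH2 KO and 3, 26 and 3 in SUZ12 KO. KRT9, a keratin of palm and sole, had 3, 2 and 0 counts in controls and 6, 18 and 27 in SUZ12 KO and was just under the threshold there (adjusted p = 0.0496), at a level under 1 CPM in the controls.

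The abundant claudins did not follow. CLDN1 was at 341, 369 and 294 CPM in controls, 512, 582 and 296 CPM in EZH2 KO and 270, 226 and 242 CPM in SUZ12 KO. Neither difference was called, with log2 fold changes of 0.50 ± 0.26 (adjusted p = 0.227) and -0.41 ± 0.26 (adjusted p = 0.297), although all SUZ12 KO libraries were below all controls and the fit on those 6 libraries alone called it (adjusted p = 0.0437). CLDN12, CLDN15 and KRT10 had log2 fold changes between -0.19 and 0.34 in both KOs, and none passed the test. KRT80 was lower in all SUZ12 KO libraries (7, 6 and 6 counts against 40, 24 and 139) and missed the call with an adjusted p of 0.0531.

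The direct comparison of EZH2 KO with SUZ12 KO called 0 of 18 members by edgeR and 0 by DESeq2, against 0.00661% of all genes by edgeR, which is 1 gene, EZH2 itself, and 20 genes by DESeq2. At an unadjusted p under 0.05 there were 4 members, CLDN1, CLDN6, CLDN10 and CLDN11. For KRT8 the log2 difference of EZH2 KO minus SUZ12 KO was -0.32 ± 0.42 and for CLDN10 -3.56 ± 1.02 (SE, both adjusted p = 0.999), so a difference of several-fold in CLDN10 was not resolved.

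These calls held unequally when libraries were left out 1 at a time. KRT8 and KRT17 remained called in both KOs without any library of the 12. CLDN5 and CLDN10 remained called in SUZ12 KO. In EZH2 KO, CLDN4, CLDN5 and CLDN7 were lost without WT clone library 1 (adjusted p 0.0689, 0.0984 and 0.0656) or library 2 (0.0612, 0.0704 and 0.124). CLDN5 and CLDN7 were also lost without the parental library or EZH2 KO clone 1, CLDN4 and CLDN5 without EZH2 KO clone 3, and CLDN7 without EZH2 KO clone 2 or SUZ12 KO clone 1. In SUZ12 KO, CLDN4 and CLDN7 were lost without SUZ12 KO clone 2 or WT clone library 2, CLDN4 and CLDN6 without WT clone library 1, and CLDN7 without the parental library (adjusted p 0.05 to 0.0669). KRT9 was lost without any of 8 libraries, that is WT clone libraries 1 and 2, the parental library, all EZH2 KO clones and SUZ12 KO clones 2 and 3.

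**Figure D3:**
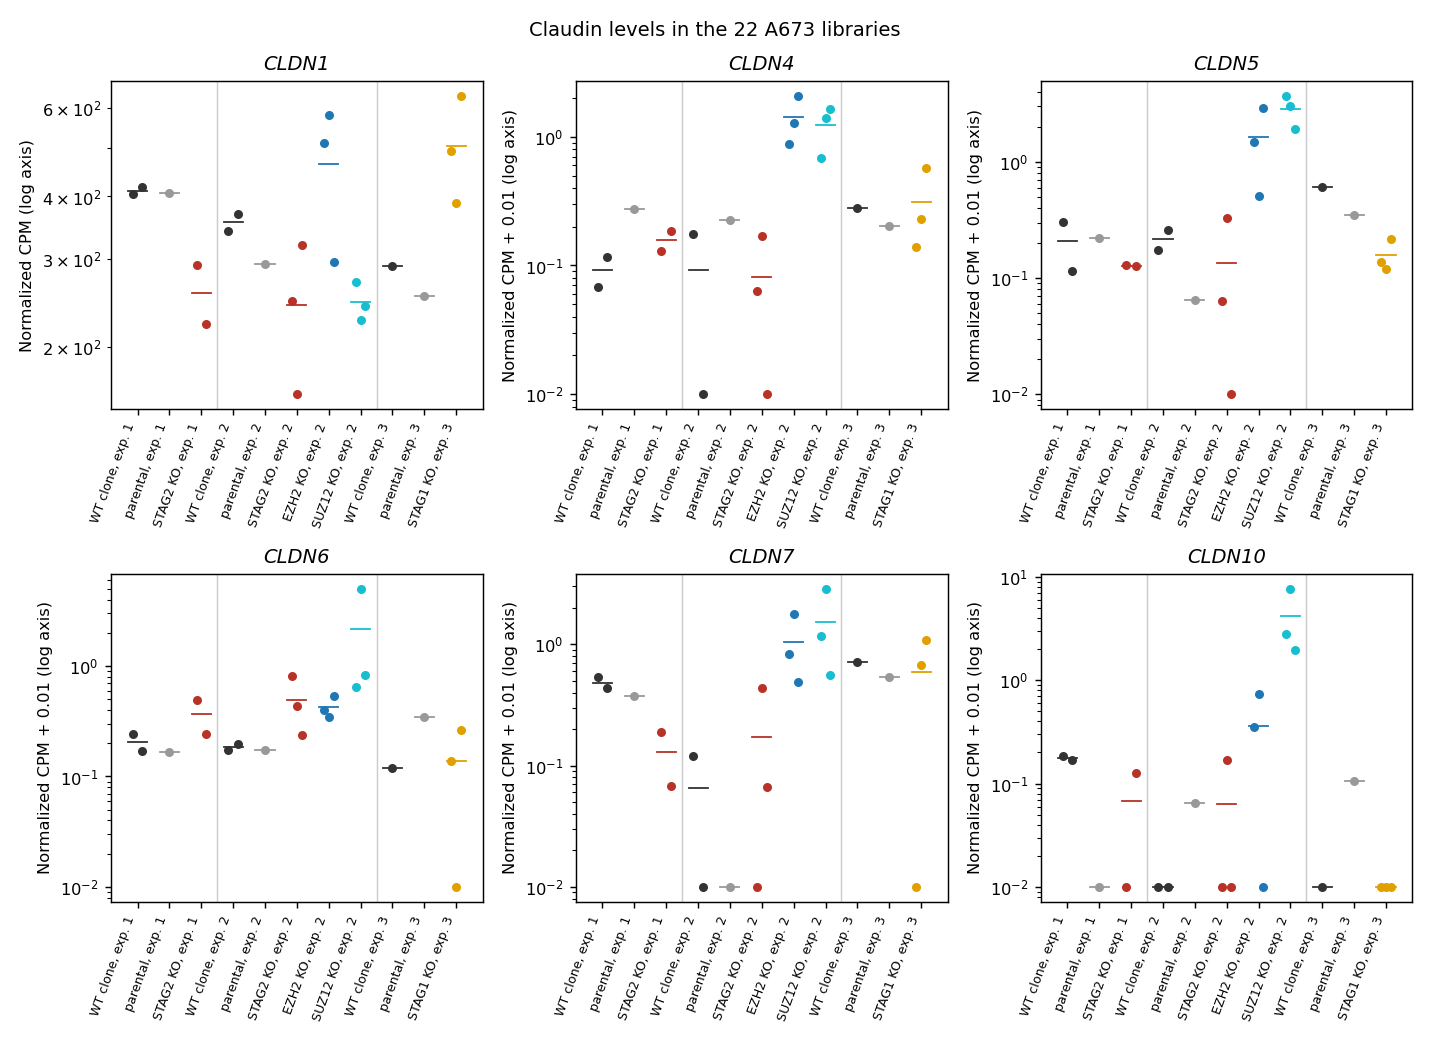
CLDN1, CLDN4, CLDN5, CLDN6, CLDN7 and CLDN10 in the 22 A673 libraries, in normalized CPM on log axes that differ between panels, with 0.01 added in all panels but that of CLDN1. Points are libraries and lines group means. The 6 PRC2 KO libraries lie above their 3 controls for CLDN4, CLDN5, CLDN6 and CLDN7, and 1 EZH2 KO library has no CLDN10 count.

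Other epithelial genes were counted beside the members. Of 26 such genes, 11 were tested in experiment 2. In EZH2 KO 6 rose and 1 fell, and in SUZ12 KO 8 rose and 1 fell, with medians of 1.91 and 2.29 (log2), where 12% and 14.7% of all genes rose and the medians over all genes were 0.04 and 0.01. Several of the 11 had almost no control counts and entered the test through the KO libraries. MAL2, a protein of apical transport, had 0 counts in the 3 controls and was at 1.06 to 3.84 CPM in EZH2 KO and 4.50 to 8.48 CPM in SUZ12 KO. The splicing regulator ESRP1 was at 0 to 0.124 CPM in the controls, 2 to 4.76 CPM in EZH2 KO and 5.08 to 6.58 CPM in SUZ12 KO. EPCAM, an adhesion protein of epithelia, rose in SUZ12 KO only by this test, to 0.581 to 2.24 CPM from 0.0544 to 0.165 CPM. Of 22 genes for proteins that link or crosslink filaments at desmosomes and the cell envelope, 11 were tested, 5 rose and 1 fell in EZH2 KO and 7 rose and 1 fell in SUZ12 KO. DSP, the desmosome protein that anchors keratins, was at 0.0544 to 0.186 CPM in controls, 2.77 to 13.2 CPM in EZH2 KO and 5.98 to 16.4 CPM in SUZ12 KO, and rose in both. With so little RNA in the controls, DSP too entered the test through the KO libraries. Of 16 tested genes of the tight junction other than claudins, 2 rose and 1 fell in EZH2 KO and 3 rose and 3 fell in SUZ12 KO. The share that rose was near that over all genes, and the medians of the list were 0.01 and 0.34. Among those called in both KOs, F11R, an adhesion molecule of the junction, rose by 3.39 ± 0.71 and 3.83 ± 0.72 and MARVELD3, a junction membrane protein, fell by 2.17 and by 2.63.

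Of 13 tested genes for other intermediate filaments and lamins, 0 rose, 2 fell in EZH2 KO and 3 in SUZ12 KO, where VIM, the filament of mesenchymal cells, fell by 1.18 on the log2 scale. Among 9 tested repressors of epithelial genes and their partners, 2 rose and 2 fell in each KO. The ones that rose were TWIST2 (5.35 ± 0.98 and 6.56 ± 0.98) and ZEB1 (2.73 ± 0.82 and 3.03 ± 0.82). Only 7 of these repressors were tested in STAG2 KO, and low ones may have entered here through the KO libraries. Over all genes, 12% rose and 3.69% fell in EZH2 KO, and 14.7% rose and 5.87% fell in SUZ12 KO. The 5 epithelial marker genes summed to 2.5 to 4.96 CPM in EZH2 KO and 5.76 to 8.09 CPM in SUZ12 KO against 0.272 to 0.331 CPM in controls of experiment 2, and GRHL2 was at 0 in EZH2 KO. Of the fibroblast markers DCN, LUM, COL1A2 and PDGFRA, COL1A2 fell and PDGFRA rose in both KOs, and their sum, nearly all COL1A2, was 158 to 451 CPM in PRC2 KO against 550 to 1298 CPM. The endothelial markers PECAM1, CDH5 and VWF summed to 2.11 to 6.30 CPM in PRC2 KO against 0.771 to 1.18 CPM in controls, a change that goes with that of CLDN5, and its part in that result was not tested.

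STAG2 KO moved KRT8 the other way. Of 13 members tested over experiments 1 and 2, 1 rose (KRT34) and 4 fell (KRT8, KRT40, CLDN1, CLDN11), against 5.87% of 14215 genes that rose and 6.34% that fell. The median over the 13 was -0.49 and over all genes 0.01. KRT34 entered this test through STAG2 KO libraries, and KRT40 and CLDN11 through the controls, in each case the group in which they were high. KRT8 was at 9.38 and 14.8 CPM in STAG2 KO libraries 5 and 24 of experiment 1 against 23.2, 22.6 and 26.8 CPM in their controls. In experiment 2 it was at 9.16, 10.5 and 9.52 CPM against 29.2, 25.5 and 37.7 CPM. All 5 STAG2 KO libraries were below all 6 controls, and the log2 fold change was -1.40 ± 0.19 (adjusted p = 9.49e-04). Within experiment 1 alone it was -1.04 (adjusted p = 0.0296) and within experiment 2 alone -1.67 (adjusted p = 0.0116), and the call remained under each of 19 alternatives.

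KRT18 gave no such picture. It was at 209 and 365 CPM in STAG2 KO of experiment 1 against 173 to 217 CPM, and at 206, 88.4 and 208 CPM in experiment 2 against 325 to 377 CPM. Its log2 fold change was 0.57 in experiment 1 and -1.06 in experiment 2, neither called, and -0.33 ± 0.33 over both (adjusted p = 0.604). KRT17 varied from 2.62 to 36.4 CPM among the 5 STAG2 KO libraries, with library 24 lowest, and was not called (log2 fold change -0.49 ± 0.75, adjusted p = 0.745).

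CLDN1 was lower in STAG2 KO, by less. It was at 292 and 223 CPM in experiment 1 against 405 to 417 CPM, and at 248, 161 and 320 CPM in experiment 2 against 294 to 369 CPM, where the groups overlapped. The log2 fold change was -0.60 ± 0.16 (adjusted p = 0.0355). In experiment 1 alone it was -0.71 (adjusted p = 0.0218) and in experiment 2 alone -0.48 (adjusted p = 0.271). The call was kept in 8 of 19 alternatives. CLDN11 was at 0 to 5 counts in each STAG2 KO library and 8 to 23 in each control, with a pooled ratio of controls over STAG2 KO of 5.08 (counting interval 2.81 to 9.96, adjusted p = 0.0272), and was kept in 9 of 17. KRT40 had 3 counts in all 5 STAG2 KO libraries together and 56 in the 6 controls, a ratio of controls over STAG2 KO of 15.4 (5.01 to 77, adjusted p = 0.0473). Its controls of experiment 2 had only 5, 1 and 2 counts.

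KRT34 was present in some clones only. It had 57, 42 and 27 counts in STAG2 KO clones 3 and 2 of experiment 2 and in library 5 of experiment 1. The libraries of clone 5 of experiment 2 and of number 24 had 2 and 0, and the 6 controls held 1 count together. The call (adjusted p = 0.00984) was lost without library 5 of experiment 1 (adjusted p = 0.0552), without the parental library of experiment 2 (0.0783) and without STAG2 KO clone 2 or 3 of experiment 2, where too few counts were left. KRT34 had at most 1 count in each EZH2 KO and SUZ12 KO library, 0 in the STAG1 KO libraries and 0 reads in all 6 knockdown libraries.

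The calls of CLDN1, CLDN11 and KRT40 in STAG2 KO also rested on single libraries. CLDN1 was lost without library 5 or 24 of experiment 1, clone 3 of experiment 2, any of the 4 WT clone libraries or the parental library of experiment 1 (adjusted p 0.0656 to 0.0941). CLDN11 was lost without library 24 of experiment 1, clone 2 of experiment 2 or any WT clone library but library 2 of experiment 2. KRT40 was lost without library 24 or 5 of experiment 1, clone 3 of experiment 2, WT clone library 1 or the parental library of experiment 2. Without WT clone library a or b or the parental library of experiment 1 it had too few counts for the test.

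Of the other epithelial genes, 7 were tested in STAG2 KO and 0 were called. The 5 epithelial markers summed to 0.0536 to 8.56 CPM over the 5 STAG2 KO libraries, and in clone 5 of experiment 2 ESRP1 was at 7.70 CPM, above every PRC2 KO library. That clone stood apart from the other STAG2 KO clones of experiment 2, with a mean chi-square per gene of 140 and 113 against 25.7 between the other pair. Without it 4219 genes in all were called in STAG2 KO, and CLDN12 (adjusted p = 0.0266) and KRT80 (adjusted p = 0.0367) among the members. Of 10 filament linkers tested, 2 rose, PKP2 (2.37 ± 0.33) and EPPK1 (1.44 ± 0.41), and 1 fell, PKP1 (-0.72 ± 0.11). Among 13 other filaments, NES (-4.04 ± 0.34), SYNM (-3.75 ± 0.61) and NEFL (-2.19 ± 0.48) fell and PRPH rose (3.01 ± 0.78). Of 7 repressors tested, SNAI2 fell by 2.10 on the log2 scale and TCF4 by 0.68. Over all genes tested in STAG2 KO, 5.87% rose and 6.34% fell. The 4 fibroblast markers summed to 13.2 to 232 CPM in STAG2 KO against 550 to 1453 CPM in its controls, and 3 of the 4 fell, and their part in the results on members was not tested.

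Within experiment 2, the 6 PRC2 KO libraries were set directly against the 3 STAG2 KO libraries. Of 18 members, 8 were higher in PRC2 KO and 1 lower, against 15.9% and 13.8% of 15130 genes. CLDN4, CLDN5, CLDN7, CLDN10 and KRT40 entered this test through the PRC2 KO libraries, in which they were high. KRT8 differed by 5.55 ± 0.50 (log2, adjusted p = 2.66e-05) and here KRT18 differed too, by 1.32 ± 0.27 (adjusted p = 0.00374), as every PRC2 KO library (251 to 513 CPM) was above every STAG2 KO library (88.4 to 208 CPM). KRT17 (2.17 ± 0.44), KRT40 (3.21 ± 0.74), CLDN4 (4.10 ± 0.84), CLDN5 (4.05 ± 0.87), CLDN7 (2.92 ± 0.99) and CLDN10 (4.35 ± 1.21) were also higher, and KRT80 was lower (-2.80 ± 0.88, adjusted p = 0.0318). CLDN7 was called in 5 and KRT80 in 7 of 14 alternatives, and CLDN10 was lost without STAG2 KO clone 2 (adjusted p = 0.0654) or 3 (0.0677).

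**Figure D4:**
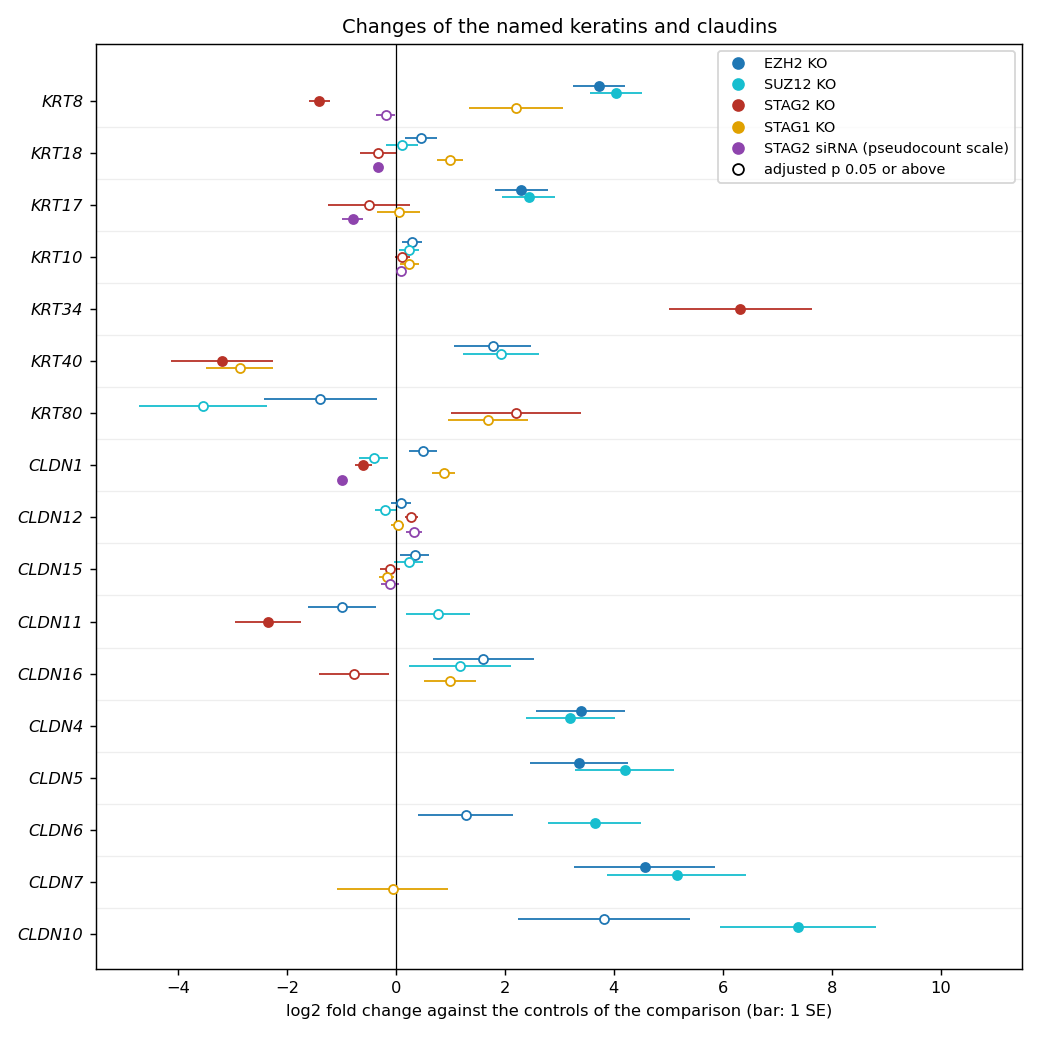
Log2 fold changes of 17 named members against the controls of each comparison, with bars of 1 SE and filled points where the adjusted p was under 0.05. The siRNA values come from log2 of the deposited value plus 1, the others from count fits, so low genes are not on the same scale, and no point means that the gene was not tested. KRT8 lies at 3.73 and 4.04 in EZH2 KO and SUZ12 KO and at -1.40 in STAG2 KO.

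STAG1 KO gave no call among the 12 members tested by edgeR, against 5.27% of 14373 genes, 2.77% that rose and 2.5% that fell, with 5 members at an unadjusted p under 0.05 and 3 called by DESeq2 (CLDN1, CLDN19 and KRT18). CLDN1 was at 492, 388 and 635 CPM in the 3 STAG1 KO libraries against 290 and 254 CPM, with no overlap (log2 fold change 0.88 ± 0.21, adjusted p = 0.0717). KRT18 was at 392, 226 and 292 against 168 and 132 CPM (0.997 ± 0.244, adjusted p = 0.0718). KRT40 was at 1, 2 and 4 counts against 24 and 14 (adjusted p = 0.0542). CLDN19 was at 6, 15 and 26 counts against 1 and 2, and entered the test through the STAG1 KO libraries. KRT8 was at 33.1, 27.2 and 166 CPM against 16.8 and 15.9 CPM, so that library 7 was about as high as the lowest PRC2 KO library. Its log2 fold change was 2.20 ± 0.86 (adjusted p = 0.183) and without library 7 it was 0.87 (adjusted p = 0.0704). Of 4 fibroblast markers (DCN, LUM, COL1A2, PDGFRA), LUM fell and the others were not called. Their sum, nearly all COL1A2, was 2210 to 2461 CPM in STAG1 KO against 1580 to 1932 CPM in its controls, while their median log2 fold change was -0.92. Their part in these values was not tested. The share of all genes called in STAG1 KO was itself unsteady, since 0 of all genes were called without either control library of experiment 3 and 1914 by DESeq2.

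Loss of STAG2 and loss of STAG1, each set against its own controls, were then compared in 1 fit. Of 15 members, 3 differed, all lower in STAG2 KO (CLDN1, KRT8 and CLDN19), against 6.01% of 15041 genes called, 2.27% higher and 3.74% lower. The log2 difference of effects was -3.62 ± 0.73 for KRT8 (adjusted p = 0.0106) and -1.49 ± 0.30 for CLDN1 (adjusted p = 0.0107). Without STAG1 KO library 7 they were -2.30 (adjusted p = 0.00258) and -1.30 (adjusted p = 0.0287). Both calls were lost without the WT clone library of experiment 3 (adjusted p 0.0784 and 0.0587) or without its parental library (0.11 and 0.12). CLDN19 was under 1 CPM on average in all groups and entered this test through the STAG1 KO libraries, in which it was high.

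Knockdown of STAG2 lowered CLDN1, KRT17 and KRT18. STAG2 itself was at 144 to 180 normalized reads against 992 to 1090 in the controls. Of the 79 members, 7 passed the minimum mean of 10 normalized reads, 3 fell and 0 rose, against 11% of 12060 genes that fell and 9.54% that rose. CLDN1 was at 731, 739 and 803 normalized reads in the controls and 377, 360 and 401 after knockdown. The log2 fold change on the log2(value + 1) scale was -0.997 ± 0.074 (limma, adjusted p = 1.04e-10). KRT18 was at 3844, 3792 and 3451 against 3158, 2816 and 2859 (-0.33 ± 0.06, adjusted p = 2.45e-04). KRT17 was at 94.4, 74.8 and 121 against 38.8, 67.7 and 60.9 (-0.79 ± 0.20, adjusted p = 0.00438), and its call was lost without control library 3 (adjusted p = 0.0528).

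KRT8, which fell in the STAG2 KO clones, was at 82.9, 90.5 and 72.9 normalized reads in the controls and 53.3, 95.5 and 72.5 after knockdown, with overlap, and the log2 fold change was -0.19 ± 0.18 (adjusted p = 0.513). KRT10, CLDN12 and CLDN15 were not called. CLDN3, CLDN4, CLDN18, KRT5, KRT14, KRT20 and KRT34 were listed at 0 in all 6 libraries. Knockdown and clones were normalized separately, and the difference between the 2 effects was not tested. The fibroblast markers LUM, DCN and COL1A2 fell here too (by 3.38, 2.62 and 1.34), and their part in the results on members was not tested.

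The isogenic pairs have 1 library for each state, so their ratios carry counting error only and no test. STAG2 RNA was still present in both libraries taken as without STAG2, at 181 against 286 CPM in SK-N-MC (ratio 0.632) and at 31.8 against 83.4 CPM in A4573 (ratio 0.382). In SK-N-MC, 28 members had at least 10 counts in the pair and 14 of them were past 2-fold between STAG2 KO and the library with STAG2, 7 higher and 7 lower. Of all 16413 genes, 20.8% were past 2-fold, 9.98% higher and 10.8% lower. Among the 14, KRT12, KRT20, KRT23, KRT32, KRT40, KRT85 and CLDN10 had few counts. KRT85 had 3 counts with and 9 without STAG2, a ratio of 3.25 (counting interval 0.812 to 18.7). KRT23 had 12 and 3, a ratio of 0.271 (0.0491 to 1.005), and both intervals include no change. KRT10 rose from 2082 to 16527 counts, a ratio of 8.61 (counting interval 8.22 to 9.01), and KRT28, a hair follicle keratin whose gene lies beside KRT10 on chromosome 17, went from 7 to 284 counts, a ratio of 44 (21.1 to 110). In the same cluster KRT27 stayed at 248 and 243 counts and KRT25 went from 417 to 115. TMEM99, a gene at the KRT10 locus, was at 20.2 and 10.2 CPM and the neighbouring gene SMARCE1 at 267 and 241 CPM. Exons of KRT10-AS1 overlap those of KRT10 on the opposite strand, so reads in that stretch cannot be told apart. In the A673 STAG2 KO libraries the log2 fold change of KRT10 was 0.12 ± 0.13 (adjusted p = 0.65) and KRT28 had 0 counts.

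KRT18 was at 14066 and 5320 counts and KRT8 at 1414 and 668 counts in SK-N-MC with and without STAG2, log2 ratios of -1.29 and -0.96. KRT17 went from 2334 to 740 counts and KRT40 from 28 to 1. CLDN5 went from 107 to 17 counts and CLDN10 from 1 to 32, a ratio of 34.7 with a counting interval of 5.80 to 1413. CLDN1 was higher without STAG2, at 16970 against 7158 counts (log2 ratio 1.36). PTPRC, a blood cell gene, was at 57.1 CPM in the SK-N-MC STAG2 KO library and 2.94 CPM in its partner, while CD3E was at 0 and LYZ at 0.0643 CPM in the KO library. EPCAM was at 9.20 and 0.801 CPM, and the 4 fibroblast markers summed to 36.3 CPM in the KO library and 516 CPM in its partner. The part of these in the ratios was not tested.

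A4573 had a different set of members. KRT18 had 2 counts without STAG2 and 8 with STAG2 KI and KRT8 5 and 11, against at least 1653 KRT18 counts in every A673 and SK-N-MC library, while KRT17 was at 2859 and 1888 counts. In A4573, 11 members had at least 10 counts and 4 were past 2-fold between the library without and that with STAG2, 1 higher and 3 lower, against 21.2% of 16124 genes, 6.97% higher and 14.3% lower. CLDN1 was at 4008 counts without and 13701 with STAG2, a ratio of 0.296 (0.286 to 0.307), and CLDN16 at 9 and 45 counts, 0.203 (0.087 to 0.420). KRT25 was at 77 and 11 counts, 7.09 (3.75 to 14.8). CLDN1 was thus lower without STAG2 in A4573, in the A673 clones and after knockdown, and higher without it in SK-N-MC. KRT18 was counted among the 3 lower members, although its counts in A4573 were too few for a ratio (0.253, counting interval 0.0262 to 1.27).

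**Figure D5:**
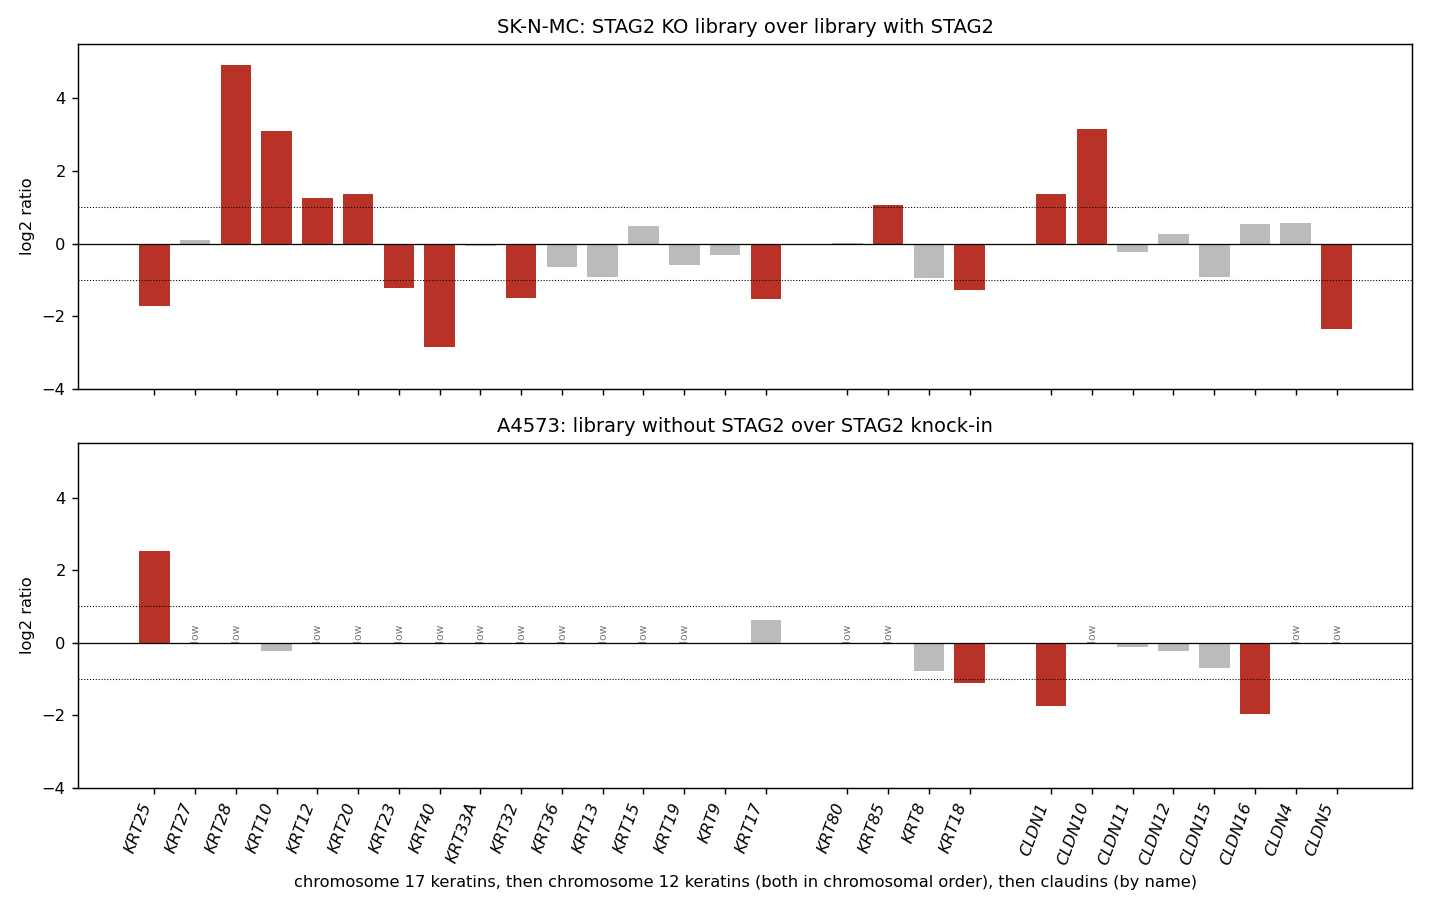
Log2 ratio of the library without STAG2 over the library with STAG2 in SK-N-MC and A4573, for the members with at least 10 counts in a pair. Bars past 2-fold (dotted lines) are red, and "low" marks members under 10 counts in that pair. KRT28 and KRT10 stand at 4.92 and 3.10 in SK-N-MC, and CLDN1 points up in SK-N-MC (1.36) and down in A4573 (-1.75).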

How the data were processed

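RNA was measured in 3 Ewing sarcoma lines. Libraries were primed with oligo(dT) and do not keep the strand, and 1 end of each fragment was read over 86 nt. The authors aligned to hg38 with TopHat 2.0.0 (SAMtools 0.1.16 and Bowtie 0.12.7 were also named), letting a read have 2 mismatches and up to 5 positions. The counting program is not given in the sources used here. The deposited values were counts per gene symbol in experiments 1 to 3 and the isogenic pairs. For the knockdown the authors deposited a signal, read counts divided by 1 factor per library, from which whole reads were recovered for 100% of values within 0.001 (6852340 to 8184632 reads per library). No other column with sample values was left out.

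Members and gene lists were chosen with earlier results of these data known. Named with values were called members whose mean reached 1 CPM, or 10 normalized reads, in a group of that comparison, the 6 keratins and 6 claudins highest in RPKM and a set of textbook epithelial members, 24 in all. Others are named as part of small counts or of the isogenic pairs, after their values were seen.

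Counts were tested in R 4.3.3 with edgeR 4.0.16 (TMM, filterByExpr given the design, quasi-likelihood) and DESeq2 1.42.0 as the alternative, and the knockdown with limma 3.58.1 on log2(value + 1). Experiment was a term in fits over several experiments. Calls are Benjamini-Hochberg adjusted p under 0.05 over all genes tested, and SE is the size of the log2 fold change divided by the root of F. The scripts were tested on simulated data. RPKM used GENCODE exons (GRCh38). Pooled ratios have exact 95% intervals. Isogenic log2 ratios used a prior count of 2. WT clone libraries a and b of experiment 1 differed least (mean chi-square 1.33 over 13967 genes, other pairs 9.41 to 140) and were kept as 2, with their sum as an alternative. KO libraries numbered 5 and 24 (STAG2) and 1, 5 and 7 (STAG1) carry these numbers in the deposited columns, where the labels give other clone numbers. The result on tight junction genes in STAG2 KO is not reported here.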

Additional observations from a re-analysis of the deposited data

Results flagged for a closer look

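A sample apart from its group was looked for in 17 sets, each a named member with a mean of at least 1 CPM in the 6 controls or in the 5 STAG2 KO libraries of experiments 1 and 2. There were 2, and chance marks about 1 in 20. KRT80 was at 7.56 CPM in the parental library of experiment 2, above the other 5 controls. The WT clone libraries of experiment 2 were at 2.20 and 1.49 CPM and the controls of experiment 1 at 0.106 to 0.408 CPM. This set thus mixes a difference between experiments with one between libraries. KRT8 was at 14.8 CPM in STAG2 KO library 24 of experiment 1, above the other 4 STAG2 KO libraries and below every control. That library also had the highest STAG2 RNA of the KO libraries (189 CPM). The part of this in the result was not tested.

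The STAG2 KO and STAG1 KO effects differed for KRT8 (log2 difference -3.62) and for CLDN1 (-1.49), by the test of the difference itself. Both genes were lower in STAG2 KO and, without a call, higher in STAG1 KO.

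CLDN1 moved opposite ways without STAG2 in the isogenic pairs, with log2 ratios of 1.36 in SK-N-MC and -1.75 in A4573. KRT25, a keratin of the inner root sheath of hair, did the reverse, with -1.72 in SK-N-MC and 2.52 in A4573. These differences were not tested, since each state has 1 library.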

How the results depend on the processing

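No direction of a called member reversed under any alternative that was run. In STAG2 KO, 5 members were called, and 1 with the WT clone as the only control or experiment 2 alone, 2 without the experiment term or when WT clone libraries a and b of experiment 1 were added together, and 2 to 7 without single libraries. In EZH2 KO, 5 were called, 3 with the WT clone as the only control and 2 to 5 without single libraries. In SUZ12 KO 8 were called, and 5 to 11 without single libraries. In STAG1 KO 0 were called, 3 by DESeq2, 3 without the filter on low counts and 0 to 1 without single libraries. For EZH2 KO against SUZ12 KO it was 0 throughout, for PRC2 KO against STAG2 KO 9 and 6 to 12 without single libraries, for the difference of the STAG2 KO and STAG1 KO effects 3 and 0 to 3, and for the WT clone against parental cells 1 and 0 to 2. The cause of these shifts was not tested. In the knockdown 3 were called, 2 to 3 without single libraries. There the replicate numbers did not pair the libraries (correlations of deviations 0.026, 0.037 and 0.004), and with the replicate block 3 members and 2881 genes were called, against 2476 genes without it. edgeR on the recovered reads also called 3. Among single genes, 80 alternative fits lost a call, 27 gained one and 1633 kept their side. Over all genes, the STAG2 KO count of 1736 ranged from 494 to 4219, EZH2 KO (2377) from 1169 to 3885, SUZ12 KO (3112) from 1874 to 4797, PRC2 KO against STAG2 KO (4495) from 3139 to 6601 the difference of effects (904) from 174 to 1861, STAG1 KO (757) from 0 to 1914 and the WT clone against parental cells (399) from 104 to 962. Both lengths gave 7 members of at least 1 RPKM. Depth limits the fold changes of CLDN4, CLDN5, CLDN6, CLDN7, CLDN10, CLDN19, KRT9 and KRT34, which had under 10 counts in each control library of their comparison, and of KRT40.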
